A study of Bos taurus with 60 samples.

Results

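The 7 mature miRNAs described here are bta-miR-142-3p, bta-miR-142-5p, bta-miR-150, bta-miR-155, bta-miR-146a, bta-miR-146b and bta-miR-223, which are best known from white blood cells. They were taken by name from the 1030 known mature miRNAs listed for bovine liver, and each was listed with a single precursor. Liver of 60 beef steers was profiled by small RNA sequencing with 1 library per steer, 20 each of Angus, Charolais and Kinsella Composite (KC), a crossbred population. In each breed 6 steers were labelled low-RFI, 6 were labelled high-RFI and 8 had no RFI group in their labels. RFI (residual feed intake) is the feed an animal eats above or below what its weight and growth predict, so that low-RFI steers are the efficient ones. Per the study, all 20 steers of a breed came from the highest and lowest RFI values, so those without a group were also selected on RFI. The grouped steers were extremes that also had miRNA profiles like the rest of their breed. The groups were thus chosen partly on miRNA levels, and their spread and p-values carry this choice. All steers were castrated males raised at 1 ranch on the same finishing diet of barley grain, barley silage and rumensin pellets. Slaughter age differed between the breeds, so breed and age cannot be told apart. In KC the low-RFI steers were also older at slaughter on average than the high-RFI ones. The study did not count this difference as significant after its correction for multiple tests, and its part in the KC values was not tested. Steers of a breed share sires, and of the 7 Angus, 5 Charolais and 11 KC sire labels only 2, 1 and 1 occurred in both RFI groups of the breed, so that sire and RFI group can hardly be told apart. P-values here treat the steers as independent.

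miR-142 is made almost only in blood cells, and both strands of its hairpin are used as mature miRNAs. miR-150 is abundant in mature lymphocytes, where it holds down the transcription factor MYB, and miR-155 is induced when lymphocytes and macrophages are activated. miR-146a is induced by NF-kB signalling, and miR-146a and miR-146b dampen this signalling through TRAF6 and IRAK1. miR-223 is characteristic of granulocytes and their precursors. The liver holds resident macrophages, lymphocytes and passing blood cells, and miR-146 is also made by other cell types. In a whole-tissue sample, fewer cells of a type and less RNA per cell cannot be told apart.

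The mature sequences follow from 5′ to 3′ with the seed, bases 2 to 8, in capitals. They are shown because 2 of the 7 can hardly be separated by sequence.
bta-miR-142-5p: cAUAAAGUagaaagcacuac
bta-miR-142-3p: aGUGUUUCcuacuuuauggaug
bta-miR-150: uCUCCCAAcccuuguaccagugu
bta-miR-155: uUAAUGCUaaucgugauaggggu
bta-miR-146a: uGAGAACUgaauuccauagguugu
bta-miR-146b: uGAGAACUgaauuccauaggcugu
bta-miR-223: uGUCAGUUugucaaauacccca

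The seeds of bta-miR-146a and bta-miR-146b are the same, and over their 24 bases the only substitution is U21C, counted from 1 at the 5′ end with the bta-miR-146a base first. Reads that end before this base, or that carry an error there, could be counted for either, so the separate values of both are uncertain. The seeds of the other 5 were shared with none of the 588 mature bovine sequences read, the 7 included. In the ARS-UCD2.0 annotation, used for names only, the miR-142 gene overlaps TSPOAP1 and the miR-223 gene overlaps VSIG4.

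Library totals ran from 1930859 to 6759381 counts per steer, with medians of 3720336 (Angus), 4405876 (Charolais) and 5547018 (KC). At these totals 3 counts, taken as the floor of detection, correspond to 0.444 to 1.554 CPM (counts scaled to a common library total), which covers counting error only. Each of the 7 miRNAs stood above this floor in every steer. Together they held 0.277% to 0.758% of the counts of a library, with medians of 0.506% (Angus), 0.528% (Charolais) and 0.538% (KC). Defining markers of liver cells were present in all breeds, with summed levels of the hepatocyte miRNAs bta-miR-122 and bta-miR-885 between 5229 and 18865 CPM.

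The strongest of the 7 was bta-miR-142-5p. On the CPM scale, after TMM scaling over the 60 steers, its median level was 3412, with a range from 2604.5 to 4601. It alone made up 68.6% of the counts of the 7 in the median Angus steer, 66.0% in Charolais and 65.2% in KC. bta-miR-146a followed with a median of 1136 CPM (774 to 2134), then bta-miR-146b with 251 CPM (108 to 940) and bta-miR-142-3p with 148 CPM (103 to 227). bta-miR-150 had a median of 84.8 CPM (51.3 to 118), bta-miR-155 of 69.4 CPM (46.4 to 355) and bta-miR-223 of 28.5 CPM (12.5 to 78.5).

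This order was nearly the same in every animal. bta-miR-142-5p exceeded bta-miR-146a, bta-miR-146a exceeded bta-miR-146b, bta-miR-142-3p exceeded bta-miR-150 and bta-miR-155 exceeded bta-miR-223 in 60 of 60 steers each. bta-miR-146b exceeded bta-miR-142-3p in 58 of 60. The neighbours whose order was not settled were bta-miR-150 and bta-miR-155, with bta-miR-150 higher in 14 of 20 Angus, 15 of 20 Charolais and 12 of 20 KC steers. In the plot of levels by breed the 7 miRNAs lie far apart while the breeds lie close together.

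**Figure D1:**
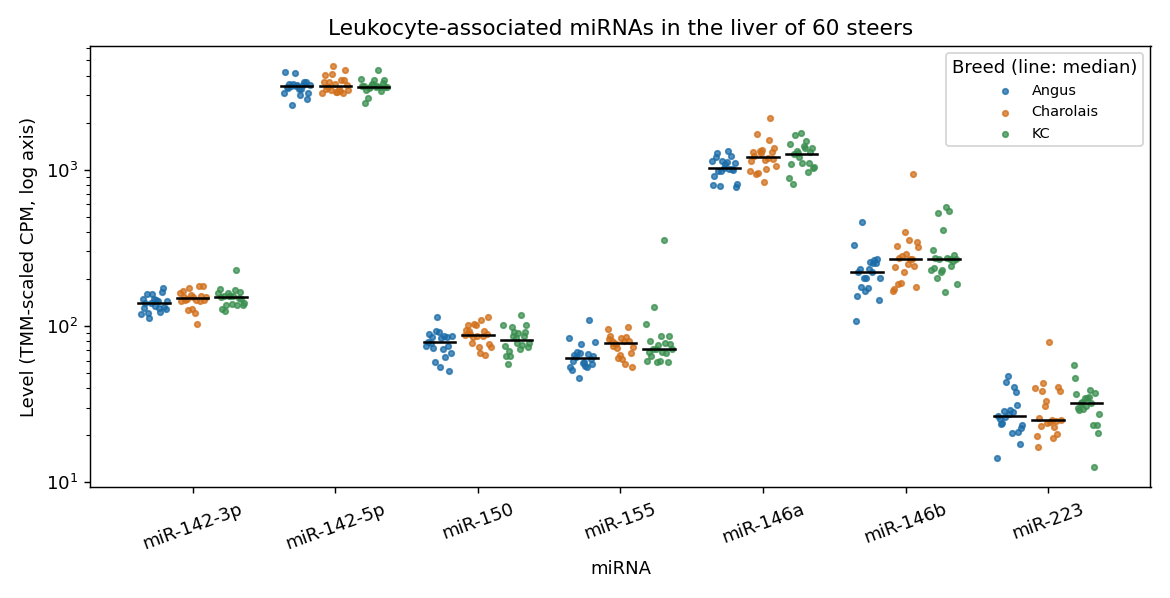
Level of each miRNA in each of the 60 steers (points, TMM-scaled CPM on a log axis) by breed, with the median of the 20 steers of a breed as a line. bta-miR-142-5p has a median of 3412 CPM and bta-miR-223 one of 28.5 CPM, and single steers stand apart for bta-miR-155 in KC (355 CPM) and bta-miR-146b in Charolais (940 CPM).

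How much a level varied between steers differed among the 7. Over the 20 steers of a breed the coefficient of variation of bta-miR-142-5p was 11.1% (Angus), 12.3% (Charolais) and 9.90% (KC), and that of bta-miR-142-3p was 11.7%, 12.9% and 14.2%. Both strands were steadier than the median miRNA of at least 10 CPM, which varied by 18.01%, 20.3% and 16.9%. bta-miR-146b varied by 33.3%, 55.9% and 39.9%, more than 9 in 10 of these miRNAs in each breed, for which the limits were 31.9%, 40.2% and 33.1%. bta-miR-223 passed that limit in Charolais alone, with 45.1%, and bta-miR-155 in KC alone, with 72.4%. Except for bta-miR-146b in KC, these values rested on the highest steer. Without it bta-miR-146b varied by 24.5% in Angus, 25.6% in Charolais and 36.1% among KC steers, bta-miR-223 by 29.5% in Charolais and bta-miR-155 by 23.5% in KC. The highest steer of a breed had at most 1.82 times the level of the lowest for either strand of miR-142, but 4.29 to 5.59 times in Angus and Charolais and 3.48 times in KC for bta-miR-146b.

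The first comparison asked whether liver of efficient steers differed from that of inefficient ones, low-RFI minus high-RFI within each breed. A miRNA was called at an unadjusted edgeR p under 0.05 and a fold change above 1.5, and Benjamini-Hochberg adjusted p-values were computed over all miRNAs tested. bta-miR-223 in KC was the one call among the 7 over the breeds, and it did not pass the adjustment. In Angus 0 of 7 were called, against 2.68% of the 373 miRNAs tested, with 1 of 7 (4.02% of all tested) at an unadjusted p under 0.05 by edgeR and 0 of 7 called by DESeq2. In Charolais 0 of 7 were called, against 2.41% of 373, with 0 of 7 at an unadjusted p under 0.05 and 0 of 7 called by DESeq2. In KC 1 of 7 was called, against 1.82% of 385, and 4 of 7 had an unadjusted p under 0.05, as 4.42% of all tested did. These 4 were both strands of the miR-142 hairpin, bta-miR-146b and bta-miR-223. All of them but bta-miR-223 moved above that limit without low-RFI replicate 5, so that the count of 4 rested on 1 steer.

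bta-miR-223, the granulocyte miRNA, ranged from 32.1 CPM over a median of 36.9 to 56.6 CPM in the low-RFI KC steers, and from 12.5 over 28.3 to 34.9 CPM in the high-RFI ones. All 6 low-RFI steers lay above the high-RFI median and 4 of 6 lay above the highest high-RFI steer, while the groups overlapped. The log2 fold change was 0.67 ± 0.20 (SE, n = 6 and 6), with an adjusted p of 0.565 by edgeR and an exact two-sided permutation p of 0.00649. The smallest p this design allows is 0.00216. Without low-RFI replicate 1 the log2 fold change was 0.55 and without high-RFI replicate 4 it was 0.51, both under the 1.5-fold limit, so that the call rested on either steer. In Angus bta-miR-223 ranged from 21.02 over 27.7 to 43.7 CPM in low-RFI and from 20.8 over 26.2 to 40.6 CPM in high-RFI steers, with a log2 fold change of 0.04 ± 0.19. In Charolais it ranged from 19.1 over 24.2 to 43.3 CPM in low-RFI and from 23.1 over 29.3 to 38.7 CPM in high-RFI steers, with a log2 fold change of -0.11 ± 0.22. Of the low-RFI steers, 1 of 6 in Angus lay above the high-RFI range, while 2 of 6 in Charolais lay above it and 3 below it.

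**Figure D2:**
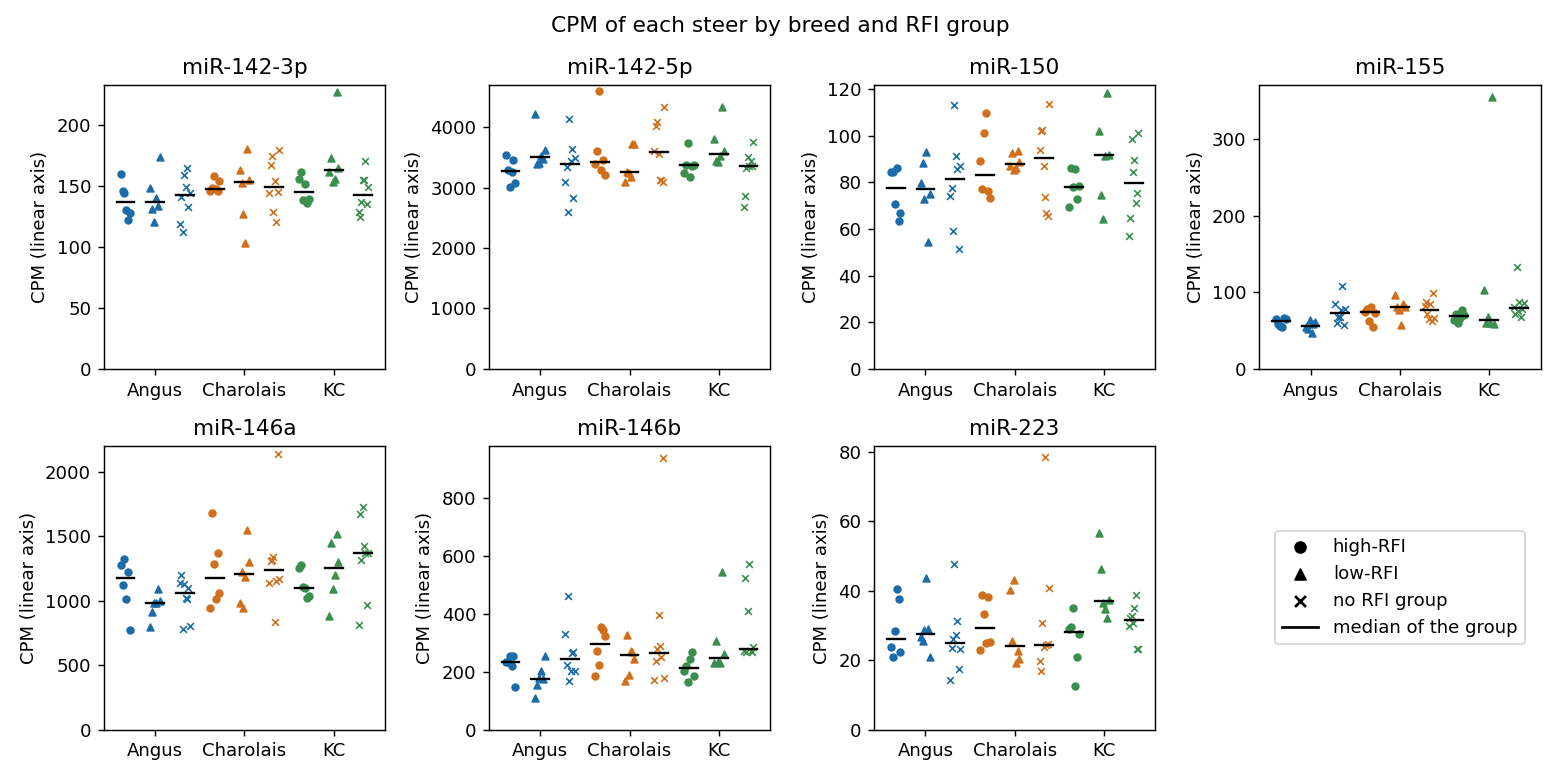
CPM of each steer on linear axes from 0, with 1 panel per miRNA, by breed and by RFI group (circles high-RFI, triangles low-RFI, crosses no RFI group, lines group medians). The 6 low-RFI KC steers lie at 32.1 to 56.6 CPM for bta-miR-223 against 12.5 to 34.9 CPM in high-RFI steers, and 1 low-RFI KC steer stands at 355 CPM for bta-miR-155.

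The strands of miR-142 were on the higher side in low-RFI KC steers by less than 1.5-fold. bta-miR-142-3p ranged from 154 over 163 to 227 CPM in low-RFI and from 136 over 146 to 162 CPM in high-RFI KC steers. The low-RFI steers all exceeded the high-RFI median and 4 of 6 exceeded every high-RFI steer. Its log2 fold change was 0.26 ± 0.10, with an exact permutation p of 0.013 and an adjusted edgeR p of 0.905. bta-miR-142-5p ranged from 3418 over 3562 to 4334 CPM in low-RFI and from 3184 over 3371 to 3736 CPM in high-RFI KC steers. Its groups overlapped more, with 2 of 6 low-RFI steers above every high-RFI steer, and the log2 fold change was 0.16 ± 0.07 with an exact permutation p of 0.0303. In Angus, bta-miR-142-5p ranged from 3396 over 3505 to 4211 CPM in low-RFI and from 3013 over 3271 to 3542 CPM in high-RFI steers. The low-RFI steers again all exceeded the high-RFI median, and the log2 fold change was 0.17 ± 0.07 with an exact permutation p of 0.013 and an adjusted edgeR p of 0.957. Without low-RFI replicate 1, the steer of 4211 CPM, it was 0.09. The low-RFI Angus libraries were shallower, with a median total of 3668758 counts against 4351134, and their summed erythroid markers had a median of 11664 CPM against 8257 CPM, and the part of either in this value was not tested. bta-miR-142-3p in Angus had a log2 fold change of 0.06 ± 0.10. In Charolais the log2 fold changes were -0.06 ± 0.11 for bta-miR-142-5p and -0.0027 ± 0.13 for bta-miR-142-3p, each smaller than its error.

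bta-miR-155, the activation-induced miRNA, ranged from 59.0 over 63.7 to 355 CPM in low-RFI and from 59.8 over 68.9 to 76.3 CPM in high-RFI KC steers. The low-RFI median was below the high-RFI median, and 1 steer (replicate 5) stood far above the rest. The log2 fold change of 0.81 ± 0.42 (exact permutation p = 0.433) was 0.05 without that steer. In the same steer bta-miR-142-3p, bta-miR-142-5p and bta-miR-150 were also the highest of the 20 KC steers, and bta-miR-146b was the second highest, at 2.03 times the breed median. Its bta-miR-223, at 32.1 CPM, was 0.997 times the breed median and its rank was 11 of 20. The summed level of 4 other leukocyte-associated miRNAs (bta-miR-342, bta-miR-181a, bta-miR-181b and bta-miR-147) in this steer was 8252 CPM, against a breed median of 7832 CPM, and ranked 8 of 20. Its summed erythroid, endothelial, hepatocyte and mesenchymal markers ranked 13, 9, 16 and 18 of 20, and its library total ranked 13. Without it the log2 fold change of low-RFI against high-RFI in KC was 0.16 for bta-miR-142-3p, 0.10 for bta-miR-142-5p, 0.13 for bta-miR-150 and 0.09 for bta-miR-146a, but 0.73 for bta-miR-223.

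In the purebreds bta-miR-155 had no such steer. It ranged from 46.4 over 56.3 to 63.7 CPM in low-RFI and from 54.4 over 61.9 to 65.8 CPM in high-RFI Angus steers, with a log2 fold change of -0.09 ± 0.10 (exact permutation p = 0.288). In Charolais it ranged from 57.5 over 80.6 to 96.1 CPM in low-RFI and from 54.4 over 73.7 to 80.2 CPM in high-RFI steers, with a log2 fold change of 0.20 ± 0.14 (exact permutation p = 0.169). In Angus 3 of 6 low-RFI steers lay below every high-RFI steer, and in Charolais 4 of 6 lay above every one.

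The miR-146 pair is known for damping inflammatory signalling. bta-miR-146b ranged from 229 over 247 to 545 CPM in low-RFI and from 165 over 212 to 269 CPM in high-RFI KC steers, with a log2 fold change of 0.52 ± 0.21 and an exact permutation p of 0.0498. All 6 low-RFI steers exceeded the high-RFI median, and without the steer with the high bta-miR-155 the log2 fold change was 0.25. In Angus it went the other way, from 108 over 176 to 254 CPM in low-RFI and from 146 over 233 to 255 CPM in high-RFI steers. Only 1 of 6 low-RFI Angus steers exceeded the high-RFI median, and the log2 fold change was -0.31 ± 0.17 with an exact permutation p of 0.156. In Charolais the log2 fold change was -0.18 ± 0.18. bta-miR-146a in Angus ranged from 799 over 982 to 1088 CPM in low-RFI and from 774 over 1172 to 1324 CPM in high-RFI steers, and 0 of 6 low-RFI steers exceeded the high-RFI median. Its log2 fold changes were -0.20 ± 0.12 for Angus, -0.0036 ± 0.15 for Charolais and 0.16 ± 0.11 for KC, and none had an exact permutation p below 0.208.

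bta-miR-150, the lymphocyte miRNA, was within its error in the purebreds, with log2 fold changes of 0.06 ± 0.13 in Angus and 0.05 ± 0.12 in Charolais. In KC it ranged from 64.3 over 91.7 to 118 CPM in low-RFI and from 69.3 over 78.1 to 86.2 CPM in high-RFI steers. Of the low-RFI steers, 4 lay above every high-RFI steer and 1 lay below all of them, and the log2 fold change was 0.23 ± 0.14 (exact permutation p = 0.16).

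In KC the log2 fold changes of all 7 were above 0, with a median of 0.26, beside 59.0% of all miRNAs tested above 0 and a median of 0.03. Without low-RFI replicate 5 all 7 were above 0 as well, with a median of 0.13. In Angus 4 of 7 were above 0 with a median of 0.04, beside 0.01 over all miRNAs. In Charolais 2 of 7 were above 0 with a median of -0.0036, beside -0.0027 over all miRNAs. The plot of RFI differences shows the KC point as the highest of the 3 breeds for 6 of 7, all but bta-miR-142-5p.

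**Figure D3:**
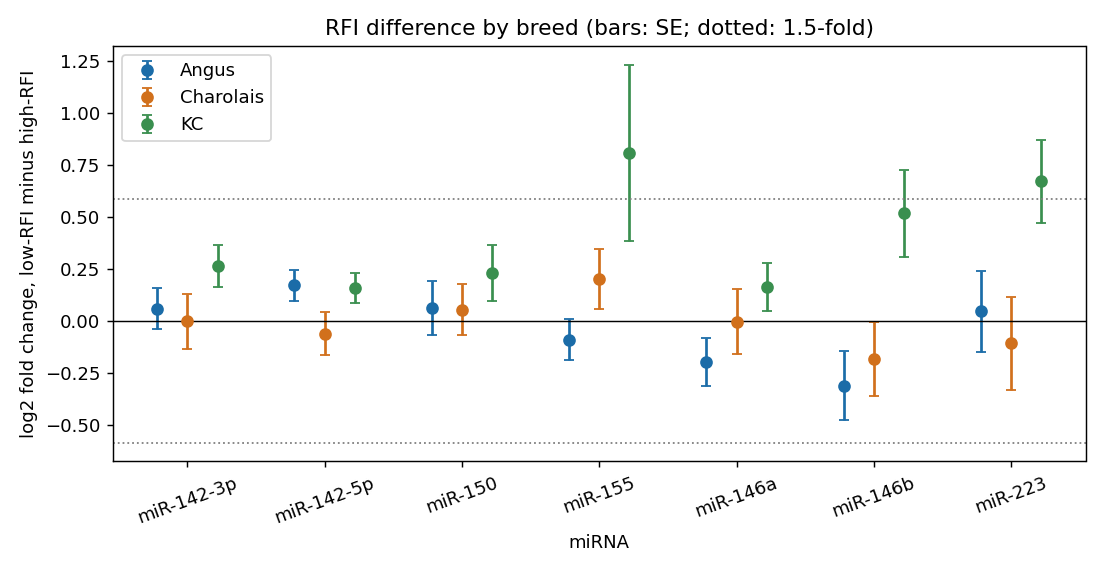
Log2 fold change of low-RFI minus high-RFI steers with its standard error for each miRNA and breed (n = 6 and 6), with 1.5-fold marked by dotted lines. In KC the values run from 0.16 for bta-miR-142-5p and bta-miR-146a to 0.81 for bta-miR-155, whose value rests on 1 steer.

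Over the 36 steers with an RFI group, 0 of 7 had an unadjusted edgeR p under 0.05 for RFI with breed as a term, against 3.52% of the 426 miRNAs tested. By the likelihood ratio test and by limma with sire as a random block it was also 0 of 7. The log2 fold change across breeds was 0.30 ± 0.17 for bta-miR-155, but 0.04 without low-RFI KC replicate 5, and 0.20 ± 0.14 for bta-miR-223, or 0.21 without that steer. The test of whether the RFI difference itself differed between breeds gave unadjusted p-values of 0.0138 for bta-miR-146b and 0.0353 for bta-miR-223 over the 36 steers. Neither passed the adjustment by edgeR (adjusted p = 0.851 and 0.914), so that a difference between breeds was not established for any of the 7.

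Other leukocyte-associated miRNAs listed beside the 7 were bta-miR-342, bta-miR-181a, bta-miR-181b and bta-miR-147. In KC 1 of these 4 was called higher in low-RFI steers, beside 1.82% of all miRNAs tested, and the median of the list was 0.12. The called one was bta-miR-147, with a log2 fold change of 0.78 ± 0.19 and an adjusted edgeR p of 0.185. Its level was low, as the only 1 of the 4 with a mean under 10 CPM. The other 3 had log2 fold changes of 0.05 (bta-miR-342), 0.18 (bta-miR-181a) and 0.03 (bta-miR-181b). In Angus and Charolais 0 of 4 were called, with medians of 0.01 and -0.12. Their summed level ranged from 7012 to 10120 CPM in low-RFI and from 6383 to 8791 CPM in high-RFI KC steers. Of the 4, only bta-miR-181a is among the most abundant miRNAs that the study lists (in Angus and Charolais), so the sum chiefly follows it. None of the erythroid (3), endothelial (2), hepatocyte (2), mesenchymal (5) and biliary epithelial (4) markers tested was called between RFI groups in any breed. In KC the summed erythroid markers bta-miR-451, bta-miR-144 and bta-miR-486 ranged from 3833 to 12570 CPM in low-RFI and from 5623 to 8664 CPM in high-RFI steers. The summed mesenchymal markers ranged from 134650 to 198580 CPM in low-RFI and from 144340 to 193820 CPM in high-RFI KC steers. This sum chiefly follows bta-miR-143, the only 1 of them among the most abundant miRNAs that the study lists. The part of other cell types in the values of the 7 was not tested.

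The second comparison was between breeds over all 60 steers, with a call at an adjusted edgeR p under 0.05. bta-miR-155 and bta-miR-146a were higher in KC than in Angus, and none of the 7 was called in the other contrasts. Against Angus, 2 of 7 were called in KC, beside 12.9% of the 425 miRNAs tested, and 0 of 7 were called in Charolais, beside 2.35%. In Charolais 3 of 7 had an unadjusted p under 0.05, as 77 of the 425 did, and DESeq2 called 0 of 7. Between KC and Charolais 0 of 7 were called, beside 18.1% of 425, with 0 of 7 at an unadjusted p under 0.05 and 0 of 7 called by DESeq2.

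bta-miR-146a ranged from 774 over a median of 1019 to 1324 CPM in Angus, from 836 over 1206 to 2134 CPM in Charolais and from 809 over 1266 to 1727 CPM in KC. The breeds overlapped broadly, with the KC and Charolais medians above the Angus median. The log2 fold change of KC against Angus was 0.27 ± 0.09 (adjusted p = 0.0329), and that of Charolais against Angus was also 0.27 ± 0.09, but with an adjusted p of 0.082. Between KC and Charolais it was -0.0025 ± 0.09, with a 95% interval from -0.17 to 0.17. The KC call was lost without low-RFI replicate 2 or high-RFI replicate 6 of Angus, low-RFI replicate 2 or 6 of KC, or replicate 2, 4 or 8 of the KC steers without an RFI group, at log2 fold changes of 0.23 to 0.25 and adjusted p-values of 0.0513 to 0.0622, and it was called in Charolais without high-RFI replicate 1 (adjusted p = 0.0467).

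bta-miR-155 ranged from 46.4 over 62.8 to 109 CPM in Angus, from 54.4 over 77.6 to 99.0 CPM in Charolais and from 59.0 over 71.4 to 355 CPM in KC. By medians Charolais was the highest breed, while by means KC was, at 89.6 ± 64.8 CPM (SD, n = 20) against 75.9 ± 11.9 CPM in Charolais and 65.2 ± 13.8 CPM in Angus. The log2 fold change of KC against Angus was 0.46 ± 0.14 (adjusted p = 0.0244). Without low-RFI KC replicate 5 it was 0.23, with an adjusted p of 0.0869, so that the call rested on this steer. With sire as a random block in limma, neither bta-miR-155 (0.33, adjusted p = 0.0914) nor bta-miR-146a (0.25, adjusted p = 0.0579) was called.

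bta-miR-146b ranged from 108 over 222 to 463 CPM in Angus, from 168 over 270 to 940 CPM in Charolais and from 165 over 269 to 573 CPM in KC. Its log2 fold changes of 0.39 ± 0.16 in Charolais and 0.40 ± 0.16 in KC against Angus had adjusted p-values of 0.17 and 0.0957. Without the Charolais steer of 940 CPM (replicate 7 without an RFI group) the first was 0.21, and with library totals alone bta-miR-146b was called in KC (0.44, adjusted p = 0.0255). bta-miR-150 ranged from 51.3 over 78.5 to 113 CPM in Angus, from 65.6 over 88.0 to 114 CPM in Charolais and from 57.0 over 81.3 to 118 CPM in KC. The ranges nearly coincided. The log2 fold change of Charolais against Angus was 0.18 ± 0.08 with an adjusted p of 0.206.

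bta-miR-142-5p had almost the same median in every breed, 3420 CPM in Angus, 3425 in Charolais and 3399 in KC. Its log2 fold changes against Angus were 0.06 in Charolais (95% interval -0.04 to 0.16) and 0.02 in KC (-0.08 to 0.12). For bta-miR-142-3p they were 0.10 and 0.13, and for bta-miR-223 they were 0.09 ± 0.15 and 0.18 ± 0.14, without a call. The log2 fold changes of all 7 against Angus were above 0 in both breeds, with medians of 0.18 in Charolais and 0.18 in KC, beside 0.01 and -0.01 over all miRNAs tested. These contrasts share the Angus steers. With the 36 steers of the RFI groups alone, bta-miR-142-5p and bta-miR-223 were below 0 in Charolais against Angus.

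**Figure D4:**
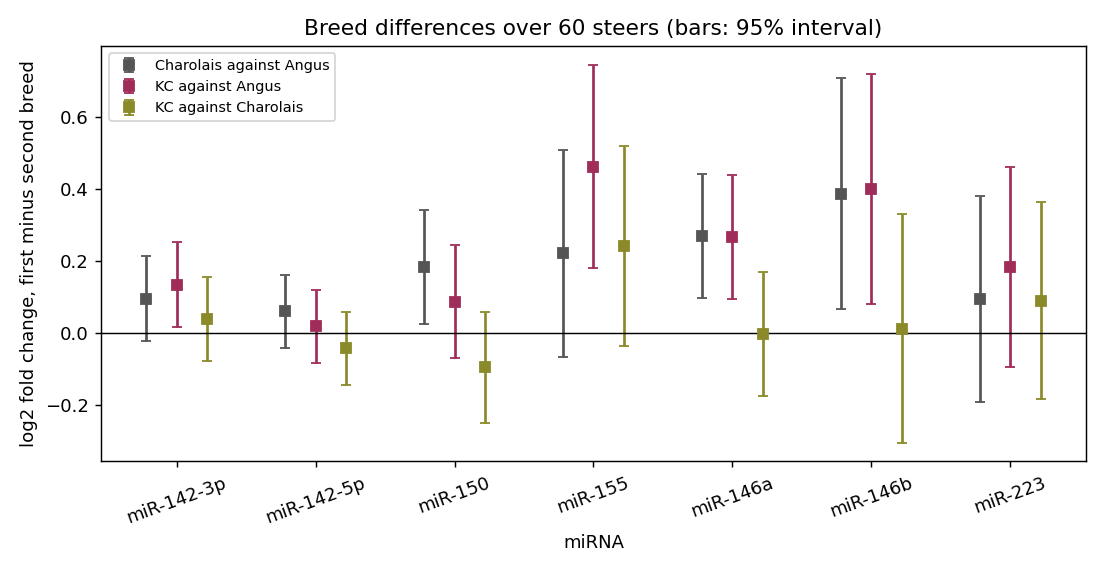
Log2 fold change between breeds for each miRNA over the 60 steers, first breed minus second, with 95% intervals. The intervals of bta-miR-155 and bta-miR-146a in KC against Angus lie above 0 (0.18 to 0.75 and 0.10 to 0.44), and those of bta-miR-142-5p include 0 in all 3 contrasts.

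Among the other leukocyte-associated miRNAs, 1 of 4 was called between breeds, bta-miR-181a. It was lower in KC than in Charolais, with a log2 fold change of -0.18 ± 0.07, in a contrast that called 18.1% of the 425 miRNAs tested. Of the 2 hepatocyte markers, bta-miR-885 was called in KC against Angus, with a log2 fold change of 0.55 ± 0.11, beside 12.9% of the 425. No marker of the erythroid, endothelial, mesenchymal and biliary lists was called between breeds. Their part in the breed values of the 7 was not tested.

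It was then asked whether the 7 vary together from steer to steer. The 21 pairs were correlated over the 20 steers of each breed on log2 CPM, which gave 63 relations with permutation p-values adjusted over all of them. All values of a steer come from 1 library and share its total, and steers share sires. The median Spearman correlation was 0.09 (Angus), 0.01 (Charolais) and 0.18 (KC), beside 0.00 over all pairs of miRNAs tested in each breed. The pairs ranged from -0.40 to 0.72 in Angus, from -0.38 to 0.68 in Charolais and from -0.18 to 0.64 in KC. Above the 90th percentile of all pairs lay 7 of 21 pairs in Angus, 5 in Charolais and 8 in KC, or 4, 4 and 8 when the pairs were limited to miRNAs of at least 10 CPM. Over the breeds 10 of 21 pairs were above 0 in each breed and 1, bta-miR-155 with bta-miR-223, was below 0 in each, a sign that did not hold by Pearson correlation in Charolais and KC or with library totals in Angus and Charolais. With library totals alone in place of TMM, the medians were 0.29, 0.14 and 0.36. The background over all pairs was not computed for this scaling, so these medians cannot be set against 0.00.

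The pairs that stood out joined miR-142 and miR-150. bta-miR-142-5p and bta-miR-150 had a Spearman correlation of 0.57 in Angus (permutation p = 0.0103, adjusted 0.0925), 0.68 in Charolais (p = 0.00122, adjusted 0.0384) and 0.64 in KC (p = 0.00287, adjusted 0.0562). Their Pearson correlations were 0.63, 0.72 and 0.79, with adjusted permutation p-values of 0.0289, 0.00924 and 0.00504. Without the 2 steers farthest from the median of bta-miR-142-5p, the Pearson correlation was 0.65, 0.70 and 0.59. Among the 21 pairs, it was the only one with an adjusted Pearson p under 0.05 in each breed.

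The 2 strands of the miR-142 hairpin had Spearman correlations of 0.72 in Angus (permutation p = 0.00048, adjusted 0.0302), 0.55 in Charolais (adjusted 0.0958) and 0.46 in KC (adjusted 0.231). Their Pearson correlations were 0.69, 0.57 and 0.75, with adjusted permutation p-values of 0.0117, 0.0545 and 0.00756, and without the 2 farthest steers they were 0.66, 0.48 and 0.49. bta-miR-142-3p and bta-miR-150 had Spearman correlations of 0.58, 0.60 and 0.43 in the same order, with adjusted permutation p-values of 0.0925, 0.0814 and 0.243. In KC their Pearson correlation dropped from 0.60 to 0.30 without the 2 farthest steers.

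bta-miR-146a and bta-miR-146b had Spearman correlations of 0.35 (Angus), 0.36 (Charolais) and 0.63 (KC), with adjusted permutation p-values of 0.367, 0.359 and 0.0562. The part in this relation of reads that fit either of them was not tested. bta-miR-146b had correlations below 0 with bta-miR-142-5p in Angus (-0.40) and Charolais (-0.38) and near 0 in KC (0.04). The Pearson correlation in Angus was -0.62 (adjusted permutation p = 0.0313), which was -0.24 without the 2 farthest steers and so rested on them. In KC bta-miR-155 and bta-miR-146b had a Spearman correlation of 0.55 (permutation p = 0.0136, adjusted 0.0958).

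**Figure D5:**
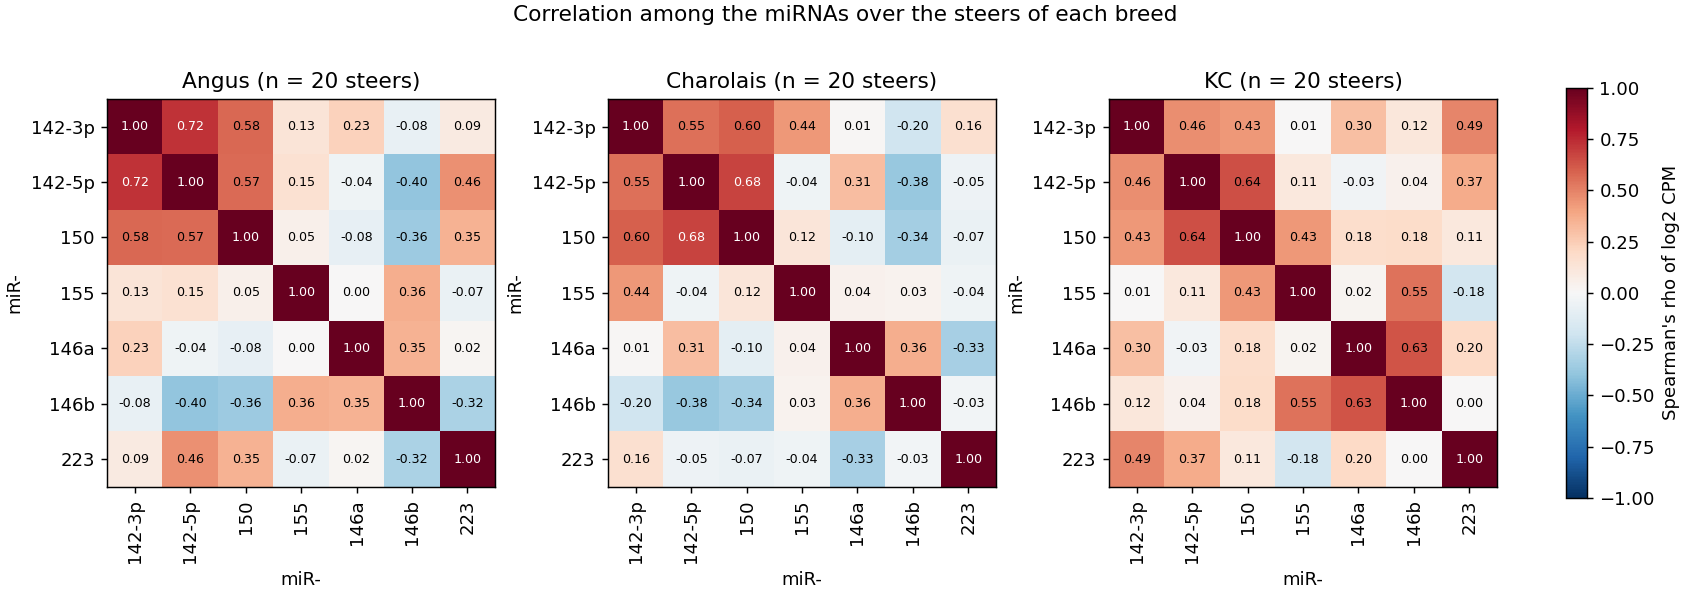
Spearman correlation of log2 CPM for each pair of the 7 miRNAs over the 20 steers of each breed, from blue (-1) to red (1). The block of miR-142-3p, miR-142-5p and miR-150 is between 0.43 and 0.72 in all breeds, whereas miR-155 with miR-223 lies between -0.18 and -0.04.

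For the lymphoid against the myeloid side, bta-miR-150 and bta-miR-155 were set against bta-miR-223. bta-miR-150 and bta-miR-223 had Spearman correlations of 0.35 in Angus (permutation p = 0.132), -0.07 in Charolais (p = 0.783) and 0.11 in KC (p = 0.652). The Pearson correlation in Angus was 0.45 (permutation p = 0.0456, adjusted 0.148) and 0.17 without the 2 farthest steers. bta-miR-155 and bta-miR-223 had -0.07 (Angus), -0.04 (Charolais) and -0.18 (KC), with adjusted permutation p-values of 0.834 or above, and with sire means subtracted 0.11 in Charolais and 0.28 in KC. Neither relation passed the adjustment in any breed.

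The ratio of bta-miR-150 to bta-miR-223 within a library does not depend on scaling. It had a median of 2.94 in Angus (1.68 to 5.13), 3.17 in Charolais (0.941 to 6.01) and 2.60 in KC (1.62 to 6.84), so that bta-miR-150 was the higher in all but 1 steer, a Charolais steer without an RFI group in which bta-miR-223 reached 78.5 CPM. By RFI group the medians were 2.74 in low-RFI and 2.73 in high-RFI Angus, 3.85 and 2.96 in Charolais, and 2.11 and 2.88 in KC. The median was higher in low-RFI steers in Charolais and lower in KC, and the ranges of the groups overlapped in each breed.

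The ratio of bta-miR-142-5p to bta-miR-142-3p was steady, with geometric means of 24.2 (Angus), 23.6 (Charolais) and 22.4 (KC) and a range over all steers from 18.9 to 30.8. Of 12 comparisons of this and the next ratio between RFI groups and breeds, 0 passed an adjusted permutation p of 0.05. The smallest adjusted p was 0.185, for the log2 ratio of bta-miR-142-5p to bta-miR-142-3p in KC against Angus, which differed by -0.11. The ratio of bta-miR-146a to bta-miR-146b varied more, with geometric means of 4.72, 4.50 and 4.35 and a range from 1.69 in 1 Angus steer to 7.39 in another. The log2 ratio of low-RFI minus high-RFI steers was -0.32 in KC (exact permutation p = 0.123) and 0.14 and 0.19 in Angus and Charolais (exact permutation p = 0.338 and 0.403).

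Of the miRNAs outside the 7, the closest in pattern were named by Spearman correlation over the 60 steers after breed means were subtracted, a description over 214 miRNAs of at least 10 CPM. The 90th percentile of all pairs of these was 0.28. bta-miR-142-3p was closest to bta-miR-29c (0.41), bta-miR-193a-3p (0.38) and bta-miR-15b (0.35). bta-miR-142-5p was closest to bta-miR-29a (0.46), bta-miR-27a-3p (0.45) and bta-miR-15a (0.41), and bta-miR-150 to bta-miR-139 (0.49), bta-miR-15b (0.44) and bta-miR-29a (0.42). bta-miR-155 was closest to bta-miR-221 (0.51), bta-miR-181d (0.36) and bta-miR-21-5p (0.36). bta-miR-146a was closest to bta-miR-874 (0.57), bta-miR-24-3p (0.47) and bta-miR-10a (0.43), and bta-miR-146b to bta-miR-100 (0.53), bta-miR-2285k (0.53) and bta-miR-99b (0.52). bta-miR-223 was closest to bta-miR-16b (0.47), bta-miR-301a (0.34) and bta-miR-10225b (0.33). bta-miR-15b and bta-miR-29a each appeared for both miR-142 and miR-150, while the neighbours of bta-miR-155, bta-miR-146a, bta-miR-146b and bta-miR-223 were not shared among them. Not all of these relations held within each breed by Spearman correlation. bta-miR-155 with bta-miR-21-5p was -0.26 in KC, and bta-miR-223 with bta-miR-301a was -0.03 in Angus and with bta-miR-10225b -0.16 in Charolais. bta-miR-150 with bta-miR-29a was 0.06 in Angus, and bta-miR-142-5p with bta-miR-27a-3p was 0.04 in KC. The other named pairs were above 0 in every breed.

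Against the marker lists, the median of the same correlations over the markers of a list ran from -0.22 for bta-miR-155 with the erythroid markers to 0.26 for bta-miR-142-5p with the endothelial ones, apart from bta-miR-146b with the endothelial markers (-0.40) and bta-miR-142-3p with the other leukocyte-associated miRNAs (-0.30). Single markers reached larger values, from -0.49 with an endothelial to 0.48 with a mesenchymal marker for bta-miR-146b, and -0.49 with a mesenchymal marker for bta-miR-150. With library totals, over 20 steers a breed, bta-miR-150 had Spearman correlations of -0.44 (Angus), -0.39 (Charolais) and -0.44 (KC), and bta-miR-142-3p of -0.27, -0.41 and -0.34. bta-miR-146a and bta-miR-146b had 0.52 and 0.53 with library totals in Charolais, so that depth moved with these levels and its part in them was not tested.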

How the data were processed

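Per the labels and the study's methods, the authors trimmed adaptors with cutadapt 1.16, removed reads of unsuitable length and of other small RNAs, mapped with Bowtie 1.1.1 to UMD3.1 and counted known miRNAs with miRDeep2. The deposited values are raw counts per mature miRNA and precursor, without normalization. Here counts were averaged over precursors and rounded. edgeR 4.0.16 (limma 3.58.1, R 4.3.3) was run by the quasi-likelihood F test in its non-legacy form with TMM, on miRNAs of at least 1 CPM in at least 6 (RFI) or 10 (breeds) of the steers fitted. Adjusted p-values follow Benjamini and Hochberg. Single miRNAs were also compared by exact permutation over the 924 possible RFI groupings (two-sided, log2 CPM, prior count 0.5), and correlations by 100000 resamples. Ratios were taken on counts plus 0.5. DESeq2 1.42.0 served for alternatives. On simulated data with 2-fold changes in 176 to 184 of the 358 to 375 miRNAs tested, edgeR found 87.5% to 90.9% of those changed at an adjusted p under 0.05. Fewer or smaller changes were not simulated, so these shares do not carry over to the RFI comparisons. The 7 miRNAs, the marker lists and the tests were chosen with earlier results of these data known. Mature sequences came from the study's supplementary list. Named beside the 7 are the 3 closest miRNAs for each and the marker lists, with values of single markers only where called or beside a called marker.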

Additional observations from a re-analysis of the deposited data

Results flagged for a closer look

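Of 63 groups of 6 or 8 steers tested for a single steer far from the others by Dixon's criterion, 12 held one. About 1 in 20 would hold one if the groups were independent and the values normally distributed. Here the same steers recur for each of the 7 miRNAs and CPM was taken without a log. The count therefore does not measure an excess over chance. Within low-RFI KC steers, 1 animal (replicate 5) stood apart for bta-miR-142-3p (227 CPM, next 174), bta-miR-155 (355 CPM, next 103) and bta-miR-146b (545 CPM, next 305). Within Charolais steers without an RFI group, 1 animal (replicate 7) stood apart for bta-miR-146a (2134 CPM, next 1339) and bta-miR-146b (940 CPM, next 397). In that steer the summed hepatocyte (18865 CPM), mesenchymal (401363 CPM) and erythroid (12244 CPM) markers and the library total were each the highest of the breed, while bta-miR-150 was the lowest. In another steer of that group bta-miR-223 was 78.5 CPM, next 40.8. For bta-miR-142-5p, 1 low-RFI Angus steer had 4211 CPM, 1 high-RFI Charolais steer had 4601 CPM and 1 high-RFI KC steer had 3736 CPM. The remaining values that stood apart were bta-miR-155 at 132 CPM in a KC steer without an RFI group, bta-miR-146b at 146 CPM in a high-RFI Angus steer, which was low, and bta-miR-223 at 43.7 CPM in a low-RFI Angus steer.

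The RFI difference differed between breeds at an unadjusted interaction p of 0.0138 for bta-miR-146b and 0.0353 for bta-miR-223 over 36 steers, and neither passed the adjustment over 426 miRNAs.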

How the results depend on the processing

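The call of bta-miR-223 in KC held under every other test, scaling and filter run, but 0 to 2 of the 7 were called there when 1 steer was left out, and 2 were called by the likelihood ratio test, with no filter on low counts and with all 36 steers in 1 fit, where bta-miR-155 joined it. Leaving out low-RFI replicate 2 or 4 also added bta-miR-155, leaving out high-RFI replicate 5 added bta-miR-146b, and leaving out low-RFI replicate 1 or high-RFI replicate 4 removed bta-miR-223. Over the 36 steers, where no fold limit was set, 3 had an unadjusted edgeR p under 0.05 with library totals alone, beside 4.93% of all 426. Their log2 fold changes of 0.12 to 0.37 were under the 1.5-fold limit, so none was a call by the rule used within breeds. With 1 steer left out, 0 to 1 had such a p (bta-miR-142-5p without high-RFI Charolais replicate 3, bta-miR-155 without low-RFI KC replicate 4). For KC against Angus 0 were called with only the 36 steers or with sire as a random block, and 1 to 3 when 1 steer was left out. For Charolais against Angus it was 0 to 1. The median correlation in Charolais turned to -0.039 at equal depth and -0.12 with sire means subtracted, and leaving out 1 steer gave -0.044 to 0.077, and in Angus -0.0053 to 0.139. The causes were not tested.

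Signs turned for values near 0. In Charolais low-RFI against high-RFI, bta-miR-142-3p became 0.058 with library totals alone, 0.016 without a filter, 0.017 with precursors summed, 0.00195 by the likelihood ratio test and 0.0027 in the legacy form of the fit, and bta-miR-146a became 0.050, 0.016 and 0.023 under the first 3. Over the 36 steers, bta-miR-146a became 0.016 with library totals alone, and bta-miR-146b became 0.038, or 0.0022 with RLE size factors. For KC against Charolais, bta-miR-146a became 0.0045 by DESeq2, 0.00429 with RLE, 0.073 with library totals, 0.017 without a filter, 0.021 with precursors summed, 0.025 without pairs listed for KC only, 0.0049 at equal depth and 0.014 with the 36 steers, and bta-miR-142-5p became 0.019 with library totals and 0.069 with the 36 steers. For Charolais against Angus with the 36 steers, bta-miR-142-5p became -0.021 and bta-miR-223 became -0.023. The correlation of bta-miR-155 and bta-miR-223 became 0.15 in Angus and 0.099 in Charolais with library totals, 0.11 and 0.28 in Charolais and KC with sire means subtracted, 0.075 and 0.071 by Pearson, and 0.011 in Charolais without the 2 steers farthest in summed level. bta-miR-150 and bta-miR-223 became 0.10 in Charolais with library totals.

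Leaving out 1 steer turned the sign of low-RFI against high-RFI in Angus for bta-miR-142-3p (-0.028 to 0.102), bta-miR-150 (-0.018 to 0.123) and bta-miR-223 (-0.101 to 0.145), and in Charolais for bta-miR-142-3p (-0.0818 to 0.089), bta-miR-142-5p (-0.102 to 0.018) and bta-miR-146a (-0.100 to 0.115). Over the 36 steers it did so for bta-miR-146a (-0.063 to 0.00732) and bta-miR-146b (-0.103 to 0.0561). Between breeds it did so for bta-miR-223 in Charolais against Angus (-0.019 to 0.137), bta-miR-142-5p in KC against Angus (-0.012 to 0.057), and bta-miR-146a (-0.033 to 0.052) and bta-miR-146b (-0.046 to 0.187) in KC against Charolais. For bta-miR-155 with bta-miR-223 the correlation ran from -0.165 to 0.061 in Angus and -0.191 to 0.079 in Charolais, and for bta-miR-150 with bta-miR-223 from -0.186 to 0.046 in Charolais and -0.026 to 0.196 in KC. The log2 ratio of bta-miR-142-5p to bta-miR-142-3p between RFI groups in Charolais ran from -0.115 to 0.025.

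The legacy form of the quasi-likelihood fit was added after seeing the data, its values having been seen first, and its counts of calls equalled those given. Leaving steers out of the fit over 36 steers was also added after seeing the data. No paired analysis was run because each library came from a different steer and no label pairs steers between groups. The replicate numbers used here follow the order of the libraries within a group. With 6 steers per group, 1 steer can carry a value.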
